A study of Mus musculus with 12 samples.

Results

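The genes that copy the genome in S phase were read here across 12 RNA libraries of primary mouse chondrocytes, the matrix-making cells of cartilage. The set holds 36 autosomal genes, chosen by symbol as known parts of DNA replication and S-phase entry. Each symbol matched 1 of the 57010 Ensembl gene IDs in the count tables, and 34 of the 36 had enough counts to be tested. Fen1 was too low and Tk1 was listed at 0 throughout.

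The labels give 3 groups of 4 libraries: Control, WT and SIRT5F101L mutant (SIRT5F101L below). All 12 carry the genotype label of a wild-type mouse, and the 2 plasmid groups received a wild-type or an F101L mutant plasmid by transfection. SIRT5 is a mitochondrial enzyme that removes succinyl, malonyl and related groups from lysines, and the WT plasmid is taken to carry its unmutated form. The labels do not say how the control cells were treated, how old the mice were or how long after transfection RNA was taken. Nothing says that the libraries of a group came from separate cultures, so p-values measure only the spread between these libraries, which may be technical. Replicate numbers follow the order of accession and pair nothing.

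DNA replication starts when the origin recognition complex, with Cdc6 and Cdt1, loads the ring-shaped MCM helicase onto DNA in G1 phase. In S phase Mcm10, Cdc45 and the GINS complex turn the ring into an active helicase, the primase and the DNA polymerases copy both strands, and the clamp PCNA and its loader RFC hold the polymerases in place. Ribonucleotide reductase and thymidylate synthase supply the deoxynucleotides. Many of these genes are known targets of the E2F transcription factors, which the Rb protein holds back until cyclin-dependent kinases release them. In the growth plate, chondrocytes divide in columns before they enlarge.

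Of the 36 genes, 30 had a promoter window in the RefSeq table (build GRCm38.p6), which runs from 250 bases before to 50 after a gene start. Mcm4, Gins1, Gins2, Pole, Rfc2 and Ccne2 had none. An E2F consensus of 8 bases, written TTTCCCGC, TTTCGCGC, TTTGCCGC or TTTGGCGC and searched on both strands, was present in a window of 13 of these 30 genes (43.3%), against 704 of 27025 genes in the table (2.60%). The stretches below end at the base before the start, except that of Mcm5, which ends 51 bases before it. They are read 5′ to 3′ on the strand of the gene, with every match in capitals. Mcm6 and Mcm5, which are helicase subunits, have overlapping matches on both strands. Gins3 has 1 match and Orc6 has none. Rfc3 has 1 in the stretch shown and another that begins at the start itself, so its window holds 2, as many as that of Mcm5. These 5 genes are shown because their fold changes, described further on, run from large and positive (Mcm5, Mcm6) through near 0 (Gins3) to negative (Rfc3, Orc6). No order of matches by fold change is to be read from these 5: the windows of Mcm10, Rrm2 and Mcm2, which also rose, hold no match of 8 bases.

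Mcm6: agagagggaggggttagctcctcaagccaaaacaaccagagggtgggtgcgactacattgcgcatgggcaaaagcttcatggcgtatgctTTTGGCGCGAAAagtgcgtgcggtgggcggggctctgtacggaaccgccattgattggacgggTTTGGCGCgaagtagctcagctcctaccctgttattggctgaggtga
Mcm5: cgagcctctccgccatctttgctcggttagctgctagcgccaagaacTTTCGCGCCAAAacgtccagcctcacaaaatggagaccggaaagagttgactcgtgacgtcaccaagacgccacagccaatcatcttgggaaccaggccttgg
Gins3: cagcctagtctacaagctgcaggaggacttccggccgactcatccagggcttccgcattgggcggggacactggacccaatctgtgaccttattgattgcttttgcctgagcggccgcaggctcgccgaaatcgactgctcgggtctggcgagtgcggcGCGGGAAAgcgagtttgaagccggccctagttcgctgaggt
Rfc3: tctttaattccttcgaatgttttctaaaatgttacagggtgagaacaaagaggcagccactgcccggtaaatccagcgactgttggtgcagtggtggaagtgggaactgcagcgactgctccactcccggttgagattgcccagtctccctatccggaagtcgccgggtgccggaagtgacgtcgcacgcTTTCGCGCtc
Orc6: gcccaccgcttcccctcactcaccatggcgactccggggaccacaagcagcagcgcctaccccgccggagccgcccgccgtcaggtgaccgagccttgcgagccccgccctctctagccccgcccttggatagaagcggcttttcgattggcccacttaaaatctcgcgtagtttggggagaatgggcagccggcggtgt

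The Mcm6 stretch is chr1:128359706-128359905 on the minus strand, and that of Mcm5 is chr8:75109309-75109458 on the plus strand. The Gins3 stretch is chr8:95633359-95633558 (plus), that of Rfc3 is chr5:151651209-151651408 (minus) and that of Orc6 is chr8:85299432-85299631 (plus). A match in these letters is a description and says nothing about binding.

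Libraries held 15095357 to 24242139 counts, so a gene with 3 counts stood at 0.120 to 0.195 CPM (counts scaled to library size, with TMM factors). The mouse gene Sirt5 (ENSMUSG00000054021) had 9 to 16 counts in Control, 1 to 9 in WT and 9 to 19 in SIRT5F101L. Its levels overlapped in all 3 groups, so the counts of the mouse gene gave no check on the labels, and WT and SIRT5F101L stand here for the libraries labelled so. SIRT5F101L replicate 1 stood apart: without it, 2212 genes in place of 6 differed between the plasmid groups by edgeR. Some member values that move with that library are also given without it, and others that move are not.

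The summed level of the 36 replication genes was higher in both plasmid groups than in Control. It was 699, 711, 702 and 677 CPM in Control, 1005, 1006, 1043 and 1055 CPM in WT, and 1037, 966, 966 and 960 CPM in SIRT5F101L. Every plasmid library lay above every control library. Rrm2 alone went from a mean of 144 CPM in Control to 282 CPM in WT and 264 CPM in SIRT5F101L. The other 35 genes summed to 541 to 563 CPM in Control, 723 to 775 CPM in WT and 699 to 760 CPM in SIRT5F101L. Summed raw counts of the 36 genes made up 0.0654% to 0.0705% of a control library, 0.103% to 0.106% of a WT library and 0.0986% to 0.104% of a SIRT5F101L library. In RNA from bulk cells, more cells in S phase and more replication RNA per cell cannot be told apart.

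In WT, 23 of the 34 tested genes rose, 1 fell and 10 did not pass the test (edgeR adjusted p under 0.05). Over all 14253 tested genes, 28.7% were called higher and 28.1% lower in that comparison. The median log2 fold change of the 34 genes was 0.47 (1.39-fold), against -0.01 for all tested genes. In SIRT5F101L, 21 rose, 2 fell and 11 did not pass, where 30.0% of all genes were called higher and 30.7% lower. The median there was 0.43 (1.35-fold), against -0.02. Both comparisons use the same 4 control libraries, so they are not independent.

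The groups did not overlap for 22 genes in WT and 18 in SIRT5F101L, all with the plasmid libraries on the higher side. Among all tested genes, 26.9% were separated upward and 26.5% downward in WT, and 25.7% in each direction in SIRT5F101L. Without SIRT5F101L replicate 1, the mutant group had 18 of the genes called higher and 2 lower, where 31.0% of all genes were called higher and 32.1% lower. The genes called higher in both groups numbered 20 of 34, where 25.9% of all tested genes were called higher in both of these comparisons with shared controls. The map of all tested members by library shows them across every role except the G1/S regulators.

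**Figure D1:**
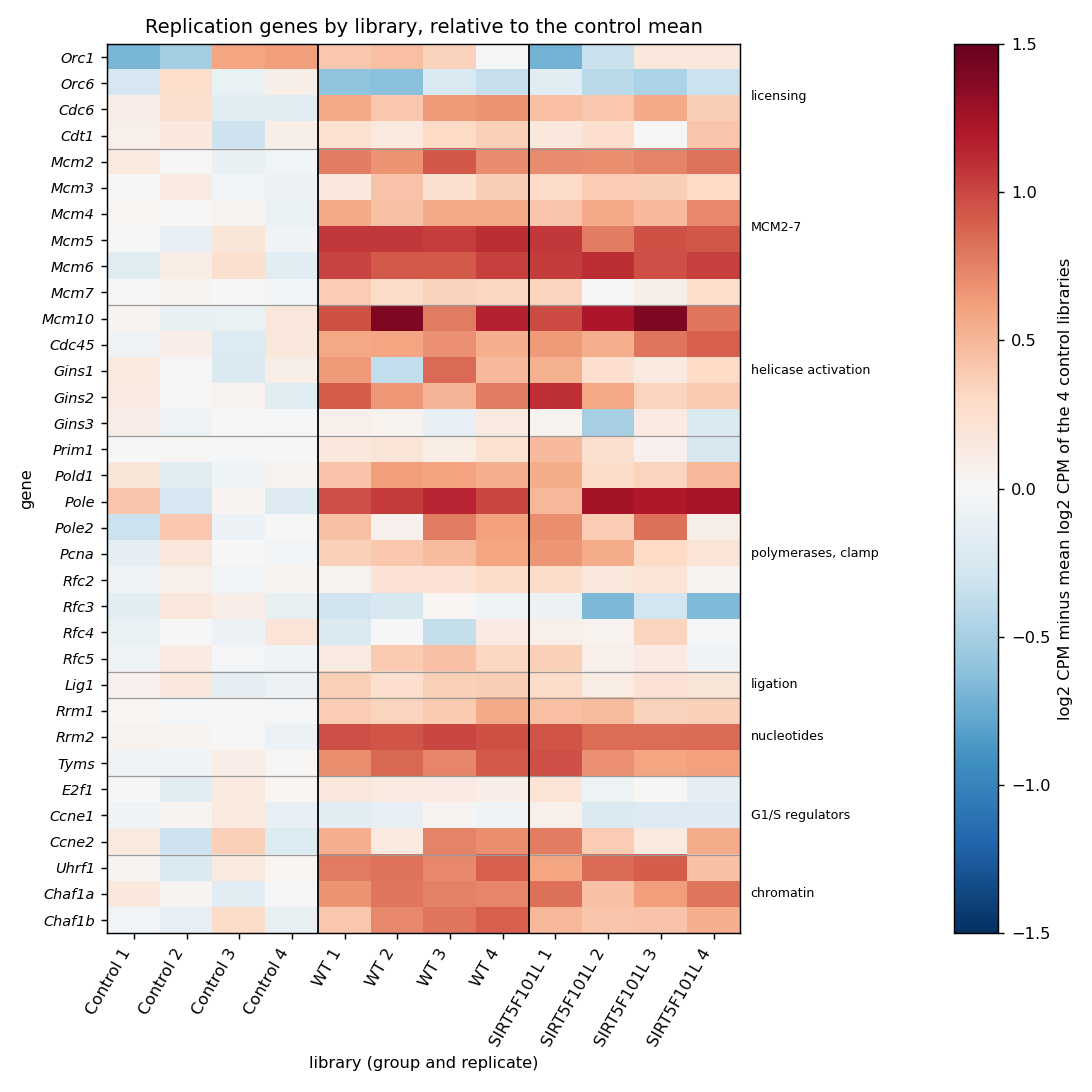
Level of each of the 34 tested replication genes (rows, grouped by role) in each of the 12 libraries (columns), as log2 CPM minus the mean log2 CPM of the 4 control libraries; red is above and blue below the control mean. The MCM, nucleotide and chromatin rows are red in all 8 plasmid libraries apart from near-white cells of Mcm7, while Orc6 and Rfc3 hold blue cells.

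Of the 4 origin licensing genes, 1 rose and 1 fell in each group, no more than the shares of all tested genes. Cdc6, the ATPase that brings MCM rings to origins, rose in both groups, whereas Orc6, a subunit of the origin recognition complex, fell in both. Orc1, the largest subunit of that complex, and Cdt1, which carries MCM rings to the origin, did not pass the test in either group.

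Cdc6 stood at 4.41, 4.86, 3.67 and 3.66 CPM in Control, at 6.11, 5.45, 6.41 and 6.58 CPM in WT, and at 5.61, 5.45, 6.09 and 5.32 CPM in SIRT5F101L. Neither plasmid group overlapped Control. The log2 fold change was 0.56 in WT (SE 0.14, edgeR adjusted p 0.00209). In SIRT5F101L it was 0.44 (SE 0.14, edgeR adjusted p 0.0118), a call lost with an offset for transcript length (0.32, edgeR adjusted p 0.0626).

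Orc6 stood at 18.8, 27.0, 21.0 and 23.8 CPM in Control, at 14.8, 14.5, 19.1 and 17.7 CPM in WT, and at 20.0, 16.9, 16.2 and 17.9 CPM in SIRT5F101L. Each plasmid group overlapped the lowest control library. Its log2 fold change was -0.46 in WT (SE 0.12, edgeR adjusted p 0.00242) and -0.36 in SIRT5F101L (edgeR adjusted p 0.0124, SE 0.12). Without Control replicate 2, the highest library, the SIRT5F101L value was -0.26 (edgeR adjusted p 0.0650) and no longer a call.

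Orc1 was near the lower limit of the test, with 14 to 37 counts in a library. Its level ran from 0.813 to 2.02 CPM in Control, from 1.28 to 1.79 CPM in WT and from 0.801 to 1.48 CPM in SIRT5F101L. The log2 fold changes of 0.18 (SE 0.32) and -0.24 (SE 0.33) lay within their error, and the second was -0.09 without SIRT5F101L replicate 1. Cdt1 had log2 fold changes of 0.25 in WT (edgeR adjusted p 0.0585) and 0.20 in SIRT5F101L (edgeR adjusted p 0.122). The WT value passed in 4 of 20 alternatives. It ran from 0.16, without Control replicate 3 (edgeR adjusted p 0.221), to 0.30.

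All 6 subunits of the MCM helicase, the motor that unwinds DNA at the fork, rose in WT, and 5 of the 6 rose in SIRT5F101L. Of all tested genes, 28.7% were called higher in WT and 30.0% in SIRT5F101L. Mcm5 and Mcm6 had the largest log2 fold changes of the 6 in both groups. Mcm3 and Mcm7 had the smallest in both.

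Mcm5 (ENSMUSG00000005410) stood at 17.2, 15.8, 19.4 and 16.5 CPM in Control, at 35.7, 35.7, 35.1 and 37.1 CPM in WT, and at 35.7, 29.3, 33.4 and 32.8 CPM in SIRT5F101L. The lowest plasmid library was well above the highest control library. Mcm5 rose by 1.06 in WT (2.09-fold, SE 0.08, edgeR adjusted p 9.67e-10) and by 0.93 in SIRT5F101L (1.91-fold, edgeR adjusted p 6.67e-09, SE 0.08), both on the log2 scale.

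Mcm6 (ENSMUSG00000026355) stood at 15.0, 18.4, 20.1 and 15.2 CPM in Control, at 34.3, 32.2, 32.2 and 34.6 CPM in WT, and at 35.3, 36.7, 33.3 and 34.6 CPM in SIRT5F101L. The 8 plasmid libraries did not overlap the 4 control libraries. Its log2 fold change was 0.95 in WT (1.94-fold, SE 0.09, edgeR adjusted p 1.84e-08) and 1.02 in SIRT5F101L (2.03-fold, edgeR adjusted p 6.05e-09, SE 0.09).

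Mcm2 rose by 0.77 and 0.74 on the log2 scale and Mcm4 by 0.54 and 0.55, in WT and SIRT5F101L respectively. Mcm3 stood at 29.8, 32.5, 28.9 and 28.0 CPM in Control, at 33.2, 39.9, 35.2 and 38.4 CPM in WT, and at 36.3, 38.8, 38.5 and 36.5 CPM in SIRT5F101L. Neither plasmid group overlapped Control, at log2 fold changes of 0.30 and 0.33. Mcm7 stood at 32.3, 33.5, 32.6 and 31.5 CPM in Control, at 42.2, 39.7, 41.3 and 40.2 CPM in WT, and at 40.8, 32.3, 34.4 and 39.1 CPM in SIRT5F101L. It rose in WT (log2 fold change 0.33, edgeR adjusted p 0.00103), while in SIRT5F101L, where replicates 2 and 3 lay close to Control, the value of 0.17 did not pass (edgeR adjusted p 0.0555) but did so in 5 of 20 alternatives. Of the longest Mcm7 transcript, 81.2% is matched at 95% identity or more by transcripts of Gm5487 and the neighbouring Ap4m1, so its counts are uncertain.

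The 6 subunits form 1 ring, and their levels per kilobase of transcript lay closer together in the plasmid groups than in Control. On that scale Mcm6 was the lowest subunit in all 12 libraries, at 3.44 to 4.62 CPM per kilobase in Control, 7.39 to 7.94 in WT and 7.65 to 8.43 in SIRT5F101L. Mcm7 was the highest in 10 libraries and Mcm4 in SIRT5F101L replicates 2 and 4. The ratio of the highest to the lowest subunit was 3.17, 2.68, 2.38 and 3.05 in Control, 1.81, 1.81, 1.89 and 1.71 in WT, and 1.70, 1.42, 1.52 and 1.67 in SIRT5F101L. The smallest control ratio lay above the largest plasmid ratio. With Mcm7 left out, the ratio ran from 1.83 to 2.52 in Control, from 1.50 to 1.71 in WT and from 1.33 to 1.67 in SIRT5F101L. These ratios are descriptions, with no test, and depend on the transcript length assumed for each gene (the longest in GENCODE M21).

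**Figure D2:**
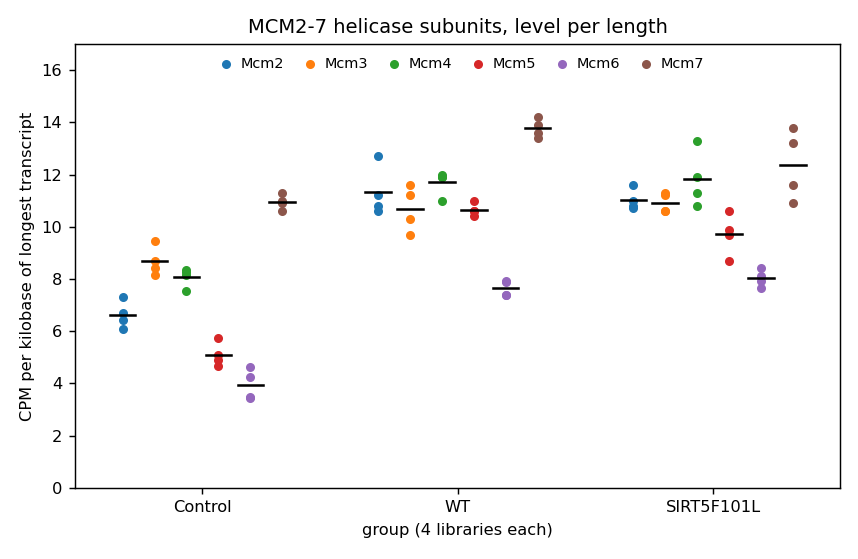
CPM per kilobase of the longest transcript for the 6 MCM subunits in the 3 groups; points are single libraries (4 per group) and black lines are group means. Control means run from 3.95 for Mcm6 to 11.0 for Mcm7, and WT means from 7.65 to 13.8.

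Of the 5 genes that switch the loaded ring on, 3 rose in each group (all tested genes: 28.7% in WT, 30.0% in SIRT5F101L). Mcm10, which helps split the double ring, had the largest log2 fold change of all 34 genes in both groups with all 12 libraries. Its lead was narrow. Over 20 alternatives its WT value ran from 0.97 to 1.17, and that of Mcm5 from 1.01 to 1.12. Without SIRT5F101L replicate 1, Mcm10 had 1.16 in SIRT5F101L and Pole 1.21. Cdc45 and Gins2, parts of the active helicase, rose as well, but Gins1 and Gins3, the partners of Gins2 in the GINS complex, did not pass.

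Mcm10 stood at 4.18, 3.75, 3.78 and 4.58 CPM in Control, at 7.89, 10.7, 6.98 and 9.04 CPM in WT, and at 8.01, 9.41, 10.7 and 7.08 CPM in SIRT5F101L. No plasmid library overlapped Control. Its log2 fold change was 1.08 in WT (2.12-fold, SE 0.16, edgeR adjusted p 9.50e-06) and 1.12 in SIRT5F101L (2.17-fold, edgeR adjusted p 5.62e-06, SE 0.16).

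Cdc45 rose by 0.59 in WT and 0.72 in SIRT5F101L, and Gins2 by 0.71 and 0.63, on the log2 scale. The rise of Gins2 in SIRT5F101L was 0.43 (edgeR adjusted p 0.00333) when replicate 1 was left out. Gins2 shares 67.3% of its exonic sequence with Gse1 on the opposite strand, and the strand setting of the counting is not known, so its counts may hold reads of Gse1. Gins3 stood at 6.67, 5.93, 6.23 and 6.11 CPM in Control, at 6.56, 6.47, 5.71 and 6.83 CPM in WT, and at 6.46, 4.41, 6.77 and 5.38 CPM in SIRT5F101L. The groups overlapped, with log2 fold changes of 0.04 and -0.10, and the WT value changed sign to -0.01 under upper-quartile scaling. Gins1, with 33 to 86 counts in a library, had log2 fold changes of 0.47 (SE 0.22, edgeR adjusted p 0.0711) and 0.31 (edgeR adjusted p 0.236, SE 0.22).

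Among the 9 genes for priming, synthesis and the sliding clamp, 5 rose in each group (all tested genes: 28.7% in WT, 30.0% in SIRT5F101L). The libraries of 5 of the 9 in WT and of 3 in SIRT5F101L lay wholly above Control (all tested genes: 26.9% and 25.7%). The SIRT5F101L calls of Rfc2 and Pole2 did not hold in every alternative, as given below. Pole and Pold1, the catalytic subunits of the leading-strand and lagging-strand polymerases, and Pcna, the clamp, rose in both. The clamp loader subunits differed in their calls: Rfc2 rose in both groups, Rfc5 rose in WT, Rfc3 fell in SIRT5F101L and Rfc4 did not pass in either.

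Pole stood at 8.82, 5.57, 6.81 and 5.79 CPM in Control, at 13.0, 13.7, 14.7 and 13.3 CPM in WT, and at 9.40, 15.8, 15.3 and 15.6 CPM in SIRT5F101L. The first SIRT5F101L library lay just above the highest control library and far below the other mutant libraries. Its log2 fold change was 1.02 in WT (2.03-fold, SE 0.16, edgeR adjusted p 1.74e-05) and 1.06 in SIRT5F101L (2.08-fold, edgeR adjusted p 1.02e-05, SE 0.16). Without that first library the SIRT5F101L value was 1.21. Pold1 rose by 0.55 and 0.42.

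Pcna stood at 26.1, 32.1, 28.7 and 27.8 CPM in Control, at 36.7, 37.9, 39.7 and 43.0 CPM in WT, and at 45.3, 42.2, 35.2 and 32.8 CPM in SIRT5F101L. Both plasmid groups lay above Control, narrowly so for the lowest mutant library, and overlapped each other. Pcna rose by 0.46 in WT (SE 0.10, edgeR adjusted p 0.000525) and by 0.44 in SIRT5F101L (edgeR adjusted p 0.000672, SE 0.10) on the log2 scale. A near-identical copy, Pcna-ps2, covers 51.4% of its longest transcript.

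Rfc3 stood at 15.4, 19.3, 18.3 and 15.8 CPM in Control, at 13.9, 14.5, 17.5 and 16.3 CPM in WT, and at 16.1, 10.7, 14.0 and 10.8 CPM in SIRT5F101L. Among the mutant libraries the first lay inside the control range and the other 3 below it. The log2 fold change was -0.41 in SIRT5F101L (0.753-fold, SE 0.13, edgeR adjusted p 0.00942) and -0.15 in WT (edgeR adjusted p 0.332, SE 0.13). Rfc2 rose by 0.19 and 0.18, with edgeR adjusted p of 0.0324 and 0.0437, calls lost in 8 and 11 of 20 alternatives. Without SIRT5F101L replicate 1, Rfc3 was -0.53 against Control and Rfc2 was 0.15 (edgeR adjusted p 0.0952). Rfc5 rose by 0.33 in WT (edgeR adjusted p 0.00919) and had 0.14 in SIRT5F101L, or 0.06 without that library.

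Prim1, the catalytic subunit of primase, had log2 fold changes of 0.17 and 0.16 that did not pass. The second of these was 0.03 without SIRT5F101L replicate 1. Pole2, the second subunit of the leading-strand polymerase, lay close to the threshold, with 0.47 in WT (edgeR adjusted p 0.0503) and 0.51 in SIRT5F101L (edgeR adjusted p 0.0333). The WT value passed in 11 of 20 alternatives, and the SIRT5F101L call was lost in 6, among them the fit without SIRT5F101L replicate 1 (0.45, edgeR adjusted p 0.0556). Rfc4 had log2 fold changes of -0.11 and 0.12, each within its SE of 0.15.

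Lig1, the ligase that seals Okazaki fragments, stood at 21.8, 23.2, 19.0 and 19.7 CPM in Control, at 26.8, 24.8, 26.7 and 27.0 CPM in WT, and at 25.3, 22.6, 24.2 and 23.6 CPM in SIRT5F101L. WT was separate from Control, and the second mutant library lay below the highest control library. Lig1 rose by 0.33 in WT (edgeR adjusted p 0.00176) and by 0.19 in SIRT5F101L (edgeR adjusted p 0.0473), on the log2 scale. The SIRT5F101L call was lost in 15 of 20 alternatives, and the value was 0.17 (edgeR adjusted p 0.0982) without SIRT5F101L replicate 1. Fen1, the flap nuclease that trims those fragments, had 2 to 22 counts in a library and was not tested. Of its exonic sequence, 84.2% overlaps Gm10143 and Tmem258 on the opposite strand.

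The deoxynucleotide genes rose together: all 3 that were tested did so in both groups (all tested genes: 28.7% in WT, 30.0% in SIRT5F101L). Rrm2, the subunit of ribonucleotide reductase that is made in S phase, was the most abundant replication gene per kilobase of transcript, at 65.8 CPM per kilobase in Control, 129.0 in WT and 120.0 in SIRT5F101L. Pcna followed in Control at 18.9 CPM per kilobase.

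Rrm2 (ENSMUSG00000020649) stood at 150, 148, 144 and 136 CPM in Control, at 282, 277, 289 and 280 CPM in WT, and at 277, 259, 258 and 261 CPM in SIRT5F101L. Every plasmid library was far above Control, and the first mutant library stood higher than the other 3 of its group, near the lowest WT library. The log2 fold change was 0.97 in WT (1.95-fold, SE 0.05, edgeR adjusted p 4.60e-12) and 0.87 in SIRT5F101L (1.83-fold, edgeR adjusted p 2.39e-11, SE 0.05). Rrm1, the large subunit of the same enzyme, rose by 0.43 and 0.40.

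Tyms, thymidylate synthase, stood at 15.4, 15.4, 17.3 and 16.3 CPM in Control, at 26.0, 29.2, 26.8 and 30.5 CPM in WT, and at 31.5, 25.8, 24.2 and 24.7 CPM in SIRT5F101L. Neither plasmid group overlapped Control, while they overlapped each other. Tyms rose by 0.80 in WT (1.74-fold, SE 0.09, edgeR adjusted p 4.24e-07) and by 0.72 in SIRT5F101L (1.65-fold, edgeR adjusted p 1.72e-06, SE 0.09), on the log2 scale. Tk1, the thymidine kinase of the salvage route, was listed at 0 in all 12 libraries, where every other member had counts. No fold change is given for it, and a listed 0 is not read here as absence of expression.

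Of the 3 G1/S regulators, 1 was called in WT, near the share of all tested genes, and none in SIRT5F101L. E2f1, the transcription factor of the E2F family, and Ccne1, the gene of cyclin E1, did not pass in either group. Ccne2, the gene of cyclin E2, passed in WT and not in SIRT5F101L, and the difference between the groups was not a call.

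E2f1 stood at 41.7, 37.1, 46.2 and 42.7 CPM in Control, at 47.0, 45.8, 45.4 and 44.8 CPM in WT, and at 48.2, 39.5, 42.2 and 37.9 CPM in SIRT5F101L. All groups overlapped. The log2 fold change was 0.13 in WT (SE 0.08, edgeR adjusted p 0.197) and 0.00 in SIRT5F101L (edgeR adjusted p 0.979, SE 0.08), and the SIRT5F101L value was -0.04 with upper-quartile scaling. Ccne1 had log2 fold changes of -0.08 and -0.13, with SE 0.09 in both, and the second was -0.20 (edgeR adjusted p 0.0603) without SIRT5F101L replicate 1. Ccne2, at 35 to 70 counts in a library, had 0.53 in WT (edgeR adjusted p 0.0417) and 0.45 in SIRT5F101L (edgeR adjusted p 0.0782). The WT call was lost in 8 of 20 alternatives, and the SIRT5F101L value passed in 2.

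The genes that copy chromatin behind the fork rose in both groups, 3 of 3 (all tested genes: 28.7% in WT, 30.0% in SIRT5F101L). Uhrf1 reads hemimethylated DNA and brings in the maintenance methyltransferase, and Chaf1a and Chaf1b are subunits of the CAF-1 histone chaperone.

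Uhrf1 stood at 15.0, 12.5, 16.1 and 14.8 CPM in Control, at 25.0, 25.6, 24.0 and 27.0 CPM in WT, and at 22.0, 26.1, 27.3 and 19.7 CPM in SIRT5F101L. No plasmid library overlapped Control. Uhrf1 rose by 0.80 in WT (SE 0.11, edgeR adjusted p 2.24e-06) and by 0.71 in SIRT5F101L (edgeR adjusted p 1.03e-05, SE 0.11), on the log2 scale. Chaf1a rose by 0.74 and 0.68, though 52.5% of its exonic sequence overlaps Ubxn6 on the opposite strand. Chaf1b rose by 0.71 in WT and by 0.46 in SIRT5F101L, from 7.29 to 9.58 CPM in Control to 10.5 to 14.7 CPM and 10.6 to 11.6 CPM.

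**Figure D3:**
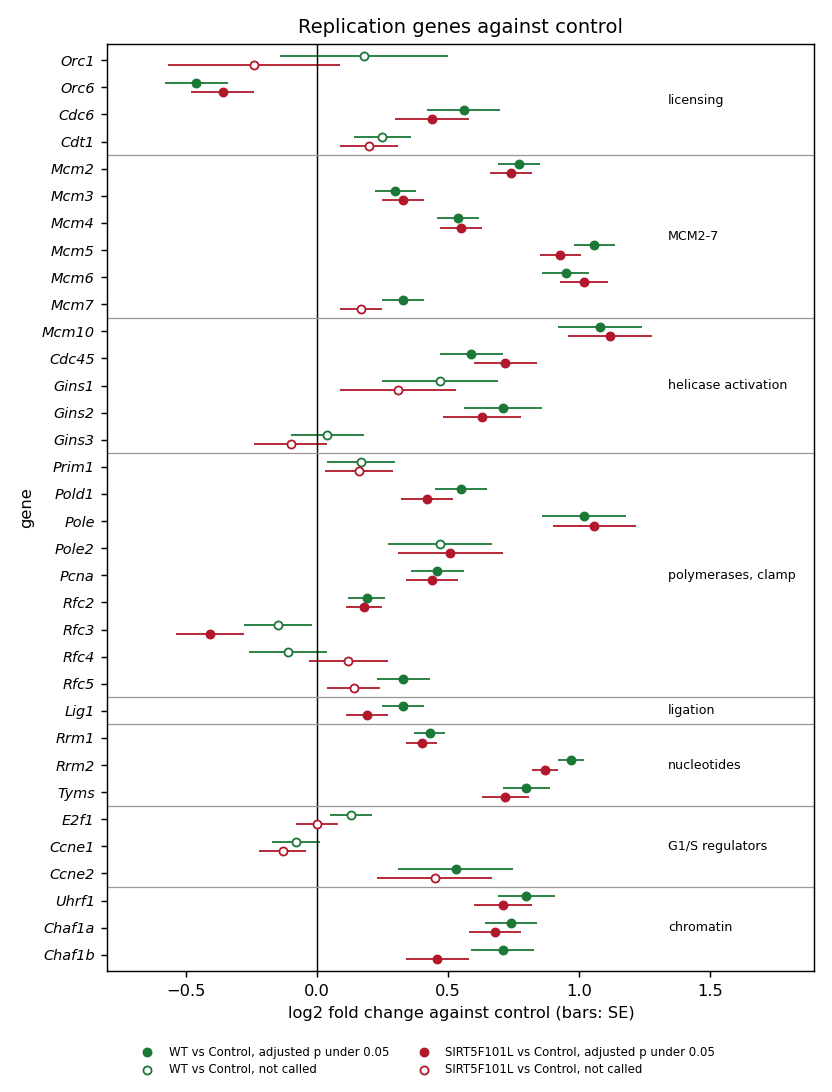
Log2 fold change of each tested replication gene in WT (green) and SIRT5F101L (red) against the same 4 control libraries, with bars of 1 SE; filled points have an edgeR adjusted p under 0.05 and open points do not. Mcm5, Mcm6, Mcm10, Pole and Rrm2 lie farthest to the right, and Orc6 and Rfc3 hold the filled points left of 0.

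Some members share exons with another gene or have near-identical copies. Of the 21 members with under 10% of either, 20 were tested, of which 12 rose and 1 fell in WT, and 12 rose and 2 fell in SIRT5F101L, against 28.7% and 28.1% of all genes in WT and 30.0% and 30.7% in SIRT5F101L. This subset was chosen after the data were seen. It leaves out further genes whose longest transcript is partly matched by other transcripts at 95% identity or more. Among these are Uhrf1 (44.3%), Rfc5 (33.6%), Rrm2 (27.9%), Tyms (26.7%) and Cdc6 (26.1%).

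Other genes of the same pathway were described from lists by role, of which the first pair share Topbp1, which rose in both groups and counts in each list. Their counts are to be read against the shares of all tested genes called higher (28.7% in WT and 30.0% in SIRT5F101L) and lower (28.1% and 30.7%). Of 17 further licensing and firing genes, 8 rose and none fell in each group. Recql4, a helicase needed for origin firing, had the highest log2 fold change of those called in WT (1.25, and 1.17 in SIRT5F101L), and Gmnn, the gene of the Cdt1 inhibitor geminin, had the lowest (0.59 and 0.48). Orc3, Orc4 and Orc5 did not pass, with log2 fold changes between -0.13 and 0.20. These 3 were singled out after their values were seen.

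Of 23 further genes of the fork, 10 rose and none fell in WT, and 8 rose and 2 fell in SIRT5F101L, the rises there near the share over all genes. Clspn, the checkpoint adaptor at the fork, had the highest called value in WT (0.77, and 0.74 in SIRT5F101L), and Rnaseh2a, a ribonuclease H2 subunit, had the lowest (0.24, and 0.03 not called). The accessory polymerase subunits Pold2, Pold3, Pold4, Pole3 and Pole4 and the single-strand binding genes Rpa1, Rpa2 and Rpa3 did not pass in WT, a group picked after its values were seen. Of these, Pole3 (-0.18, edgeR adjusted p 0.0499) and Rpa3 (-0.57, edgeR adjusted p 0.00106) fell in SIRT5F101L.

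Of 10 further nucleotide genes, 2 rose and 2 fell in WT, and 3 rose and 3 fell in SIRT5F101L. Dguok, a mitochondrial deoxynucleoside kinase, had the lowest called value in WT (-0.45, and -0.41 in SIRT5F101L). Among 9 tested genes of chromatin copying, 6 rose and 1 fell in each group. Asf1b, a histone chaperone, had the highest called value in WT (1.13, and 0.97 in SIRT5F101L), and Rbbp4, a histone-binding subunit shared by CAF-1 and other complexes, the lowest (-0.29 and -0.33). Asf1a was listed at 0 in all libraries.

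Upstream of S phase, 12 of 20 genes of the Rb, E2F and cyclin list rose and 2 fell in WT, and 13 rose and 2 fell in SIRT5F101L. E2f7, a repressor of the E2F family, had the highest value (1.22 and 1.35), and Cdk4, the kinase partner of cyclin D, the lowest (-0.58 and -0.77). Ccnd1, the gene of cyclin D1, was singled out after its values were seen. It stood at 273 ± 19.4 CPM (SD, n = 4) in Control, 543 ± 14.9 CPM in WT and 565 ± 34.0 CPM in SIRT5F101L. The more abundant Ccnd2, the gene of cyclin D2, fell in both groups (log2 fold change -0.41 and -0.32). Its means were 606 CPM in Control, 457 CPM in WT and 485 CPM in SIRT5F101L. Ccnd3, the gene of cyclin D3, rose in WT (0.21) and did not pass in SIRT5F101L (0.11). Of 6 tested CDK inhibitors, 4 fell and 1 rose in each group. Cdkn1c, which encodes p57, had the lowest value (-2.71 and -3.02) and Cdkn2d the highest (0.54 and 0.31). Cdkn1a, Cdkn1b and Cdkn2a, the other genes that fell, had log2 fold changes of -0.53, -0.88 and -1.24 in WT and -0.61, -0.94 and -1.47 in SIRT5F101L. Cdkn2b was listed at 0.

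All 22 genes of a G2/M list, which act after replication in mitosis, rose in both groups, with a median log2 fold change of 1.10 in WT and 1.05 in SIRT5F101L. Bub1, a spindle checkpoint kinase, had the highest value in WT (1.65, and 1.63 in SIRT5F101L) and Mybl2, a transcription factor of late S and G2 phase, the lowest (0.47 and 0.38). The G2/M list summed to 341 to 364 CPM in Control, 738 to 799 CPM in WT and 729 to 780 CPM in SIRT5F101L. The medians of the 34 replication genes were 0.47 and 0.43. The difference between the lists was not tested.

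Motif shares were also set side by side for the lists. The 8-base E2F consensus was present in 43.3% of the replication genes and in 1 of 18 G2/M genes with a window (5.56%). It was present in 7 of 14 genes of the Rb, E2F and cyclin list, 33.3% of the further chromatin genes, 30.8% of the further licensing genes, 26.3% of the further fork genes and 0 of 8 further nucleotide genes. The shorter form of 7 bases, without the first T, gave 66.7% and 16.7%, against 10.9% of all genes. CHR elements (TTTGAA or TTCGAA, both strands), which recruit repressors of late cell cycle genes, were present in 20.0% of the replication genes, 72.2% of the G2/M genes and 21.7% of all genes. The NF-Y box CCAAT was present in 56.7%, 83.3% and 41.1%.

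Of the replication genes with a window, 16 rose in both groups and 14 did not. The 14 include Mcm7 and Rfc5, which rose in WT only, Pole2, which rose in SIRT5F101L only, and the untested Fen1 and Tk1. The 8-base consensus was in the window of 7 of the 16 genes (43.8%) and of 6 of the 14 (42.9%). The shorter form was in 68.8% and 64.3%. Matches are descriptions of these windows, with no test, and a gene with several listed starts counts once if any window matches.

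**Figure D4:**
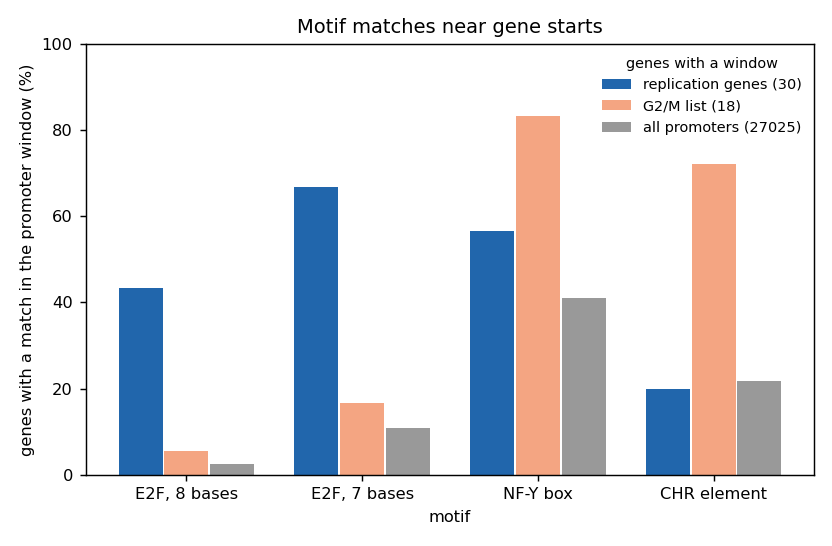
Share of genes with at least 1 motif match in a promoter window of 300 bases, for the replication genes with a window, the G2/M list and all genes in the RefSeq table. Among these 3 sets the E2F bars are highest for the replication genes (43.3% for the 8-base form) and the CHR bar for the G2/M list (72.2%).

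Between the 2 plasmid groups, none of the 34 replication genes was called by edgeR or DESeq2 with all 12 libraries. In the edgeR fit none of the 34 had an unadjusted p under 0.05, where 1701 of all 14253 filtered genes had. With no filter on low counts, 2 of 35 members had such a p. Leaving out SIRT5F101L replicate 1 gave 6, leaving out WT replicate 1 gave 3, and leaving out Control replicate 3 or SIRT5F101L replicate 3 or 4 gave 1 each. Of all tested genes, 15.2% passed the adjusted threshold without SIRT5F101L replicate 1 and 0 without WT replicate 1. Shares of all genes at unadjusted p were not counted in these fits. By adjusted p with all 12 libraries, 0.0281% of all tested genes were called higher and 0.0140% lower in SIRT5F101L. The log2 fold change was below 0 for 25 of the 34 genes, with a median of -0.07. Of all 14253 tested genes 7125 were above 0, with a median of 0.00. Among the 34, Rrm2 was the 1 gene whose libraries did not overlap, lower in SIRT5F101L at 258 to 277 CPM against 277 to 289 CPM. Of all genes, 2.03% were separated downward and 1.99% upward.

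A p that misses the threshold does not show that the plasmids act alike, so the 95% intervals of the difference are given. For 32 of the 34 genes the interval lay within 1.5-fold in either direction. The exceptions were Gins1, from -0.61 to 0.28 on the log2 scale, and Orc1, from -1.10 to 0.27, both with few counts. For Mcm5 the interval ran from -0.29 to 0.04, for Mcm6 from -0.11 to 0.25, and for Rrm2 from -0.21 to 0.01. When SIRT5F101L replicate 1 was left out, 15.2% of all tested genes were called between the plasmid groups by adjusted p. In that fit 29 of the members' intervals lay within 1.5-fold and 6 lay wholly below 0. Those were the intervals of Mcm7 (-0.36 to -0.05), Gins2 (-0.53 to -0.04), Rfc3 (-0.62 to -0.14), Rfc5 (-0.47 to -0.06), Rrm2 (-0.23 to -0.01) and E2f1 (-0.35 to -0.04), named after their values were seen.

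The 3 genes with the lowest unadjusted p were Chaf1b, Mcm7 and Rfc3. Chaf1b had a difference of -0.24 (interval -0.49 to 0.00, p 0.0536, edgeR adjusted p 0.424) and Mcm7 of -0.16 (interval -0.31 to 0.00, p 0.0539, edgeR adjusted p 0.424). Rfc3 had a difference of -0.26 (interval -0.53 to 0.01, p 0.0573, edgeR adjusted p 0.428). Without SIRT5F101L replicate 1, Rfc3 differed by -0.38 (edgeR adjusted p 0.0284), where 15.2% of all tested genes were called.

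**Figure D5:**
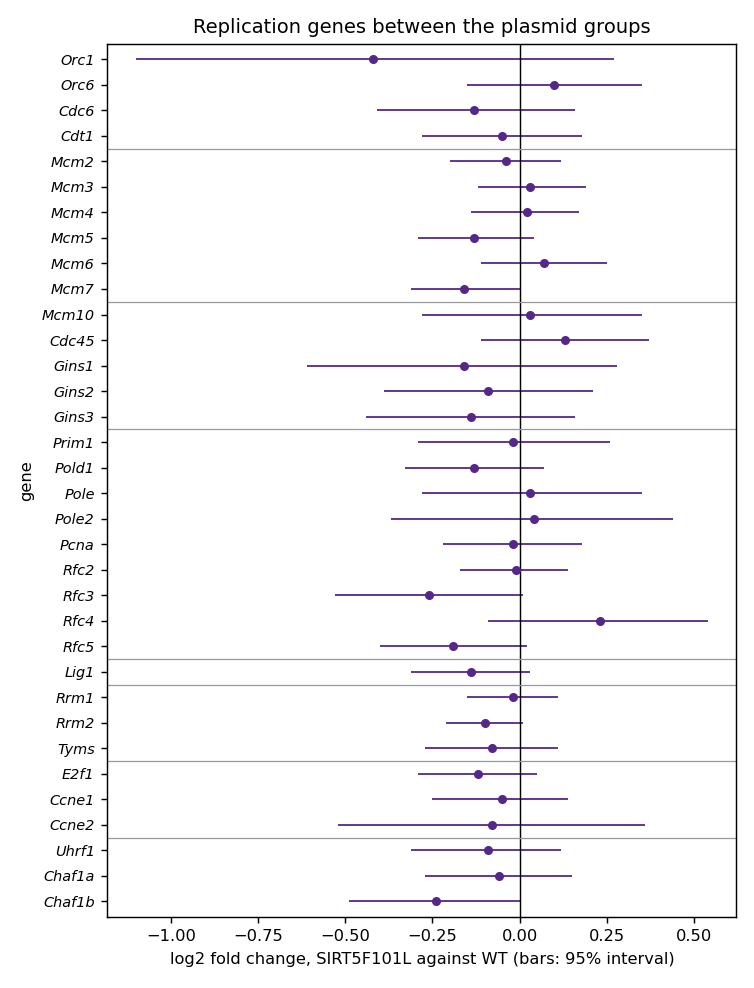
Difference in log2 level between SIRT5F101L and WT for each tested replication gene, with 95% intervals from the edgeR fit of 12 libraries. With all 12 libraries every interval reaches 0, and the widest is that of Orc1.

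Markers of cell types moved with the same groups. Of all tested genes, 28.7% were called higher and 28.1% lower in WT, and 30.0% and 30.7% in SIRT5F101L. Chondrocyte markers summed to 7987 to 9998 CPM in Control, 2248 to 2400 CPM in WT and 1788 to 2009 CPM in SIRT5F101L, and 6 of 8 fell in each group. The other two were Hapln1, which rose in both (log2 fold change 0.25 and 0.18), and Acan, which rose in WT (0.47) and did not pass in SIRT5F101L (0.10). Col2a1, the main cartilage collagen, stood at 6712 ± 690 CPM (SD, n = 4) in Control and 1663 ± 56.2 CPM in WT. Of 8 tested leukocyte markers, 7 fell and Cd14 rose in each group, and Itgam and Cd3e were at 0 in all libraries. That list summed to 173 to 210 CPM in Control, 131 to 151 CPM in WT and 141 to 180 CPM in SIRT5F101L. Of 5 tested fibroblast markers, 4 fell in each group and Pdgfra rose (log2 fold change 0.39 and 0.62), and the list summed to 17253 to 20443 CPM in Control, 6058 to 6881 CPM in WT and 5910 to 6856 CPM in SIRT5F101L. Of 3 tested osteoblast markers 2 fell in each group, and mural cell markers moved both ways, with summed levels of 1041 to 1124, 633 to 714 and 562 to 638 CPM. No endothelial marker of 3 tested was called, and no erythroid marker had enough counts to be tested. The part of cell makeup in the values of the replication genes was not tested.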

How the data were processed

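RNA was measured by poly(A)-selected paired-end sequencing in 12 libraries. Per the submitters' processing notes, the tools were FastQC 0.11.9, HISAT2 2.2.1, HTSeq 2.0.2 and DESeq2 1.38.3, with GRCm39 (mm39) as genome build. The annotation release and the strand setting of counting are not given in the sources used here. The authors deposited raw counts, 1 table for each library with a row per Ensembl ID and no normalization.

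The members and the gene lists were chosen with earlier results of these data known. All members are named against Control. Between the plasmid groups the rule takes those with p under 0.05, or else the 3 lowest p. Of each pathway list it takes the called genes with the highest and the lowest log2 fold change in WT. One result that this rule takes is not reported here.

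Counts of 12 libraries entered 1 edgeR fit (4.0.16, R 4.3.3): TMM scaling, filterByExpr by group (14253 genes left), a quasi-likelihood test with a mean per group and 9 residual degrees of freedom, 2-sided, with Benjamini-Hochberg adjustment over all genes tested. Genes were called at an adjusted p under 0.05. The SE is the log2 fold change divided by the root of F. The biological coefficient of variation was 9.18%. Depth was 15095357 to 24242139 counts a library, and limits from counts cover counting error only. Ensembl IDs not matched to a gene name held 0.377% to 0.821% of counts and stayed in the totals. All IDs placed on chromosome X (2414), Y (1547) or M (37) were at 0 in every library. The tested genes and the totals therefore do not cover those chromosomes.

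Exon overlaps, copies (BLAST) and transcript lengths came from GENCODE M21, on an earlier build than that of the authors, so no coordinates in their build are given. Promoters came from the RefSeq table, whose 32851 windows cover 27025 genes. The fit was tested on simulated data. Alternatives were RLE and upper-quartile scaling, other filters, a robust prior, DESeq2 1.42.0, fits of 8 libraries, an offset for transcript length, each library left out and a shorter motif.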

Additional observations from a re-analysis of the deposited data

Results flagged for a closer look

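In 111 groups of 4 values (the CPM of each member but Tk1 and 2 summaries over the members, in each of the 3 groups), 7 had a highest or lowest library far from the other 3, by Dixon's ratio at the 95% level. Chance flags about 1 in 20 such groups, or 5.55 here.

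Of the 7 values, 5 came from SIRT5F101L replicate 1. Its summed level of all members was 1037 CPM, against 960 to 966 CPM in the other libraries of its group. Rrm2 was 277 CPM there, against 258 to 261 CPM, and Ccne1 was 21.7 CPM, against 17.7 to 18.0 CPM. Pole was lower, at 9.40 CPM against 15.3 to 15.8 CPM. Fen1, which was not tested, was 1.18 CPM against 0.113 to 0.281 CPM. The other 2 values came from WT replicate 2, with Mcm4 at 39.3 CPM against 42.8 to 43.0 CPM and Lig1 at 24.8 CPM against 26.7 to 27.0 CPM.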

How the results depend on the processing

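Over 20 alternatives, 22 of 24 calls in WT and 18 of 23 in SIRT5F101L were made in every one. The calls of Rfc2 and Ccne2 in WT, and of Orc6, Cdc6, Pole2, Rfc2 and Lig1 in SIRT5F101L, were lost in at least 1, and the cause was not tested. Uncalled members that passed in at least 1 were Cdt1, Gins1 and Pole2 in WT (2 to 11 alternatives each, Gins1 at an edgeR adjusted p of 0.00630 without WT replicate 2) and Mcm7 and Ccne2 in SIRT5F101L. The number of members called higher ran from 21 to 25 in WT and from 18 to 22 in SIRT5F101L. It was 12 in each when only members with under 10% overlap or copy were counted, an alternative added after the data were seen that holds fewer genes. The members called lower in SIRT5F101L numbered 1 with the length offset, which lost Orc6, and 1 to 2 when a library was left out, with the 1 from leaving out Control replicate 2.

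Uncalled values that changed sign were Orc1 in WT (-0.01 without Control replicate 1, in a range up to 0.38 over libraries left out), Gins3 in WT (-0.01 with upper-quartile scaling) and E2f1 in SIRT5F101L (-0.04 with upper-quartile scaling, -0.05 without Control replicate 2 and -0.07 without SIRT5F101L replicate 1, in a range up to 0.05). Genes called between the plasmid groups numbered 6, and 354 with no filter, 2 with a robust prior, 37 with DESeq2, 20 with the length offset and 2 in a fit of 8 libraries. Leaving out a library gave 0 to 2212, with 2212 without SIRT5F101L replicate 1 and 3 or fewer otherwise, and 0 to 1 members called lower (Rfc3). Genes with an E2F motif numbered 13 with 8 bases and 20 with 7. Low counts limit Orc1, Gins1, Ccne2 and Fen1. No paired analysis was possible because replicate numbers follow accession order and pair nothing.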
